A study of Oryctolagus cuniculus with 9 samples.

Results

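The comparison set the S7 libraries of rabbit urethral tissue against the S6 libraries, gene by gene. Libraries were assigned by the code that opens each sample title, which put 6 of the 9 libraries of the series into this comparison: S6_2, S6_3 and S6_4 against S7_2, S7_3 and S7_4. The series comes from work on a stent for repair of the urethra, and sequencing was meant to show how the stent acts on that repair. All 9 libraries hold polyadenylated RNA of Oryctolagus cuniculus urethra. The treatment, time point, strain, age and control status behind the codes S6 and S7 were not given in the sources used here, nor was whether the libraries of 1 code came from separate animals. Differences are therefore stated as S7 relative to S6, with neither taken as the control, and p-values measure the spread between these libraries, which may in part be technical.

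A urethra is a mucosal tube: a stratified or transitional epithelium lies on a vascular, collagen-rich connective tissue, with smooth muscle around it. After injury such a wall is entered by neutrophils and then by macrophages, and interleukin-1 and tumour necrosis factor drive NF-kappaB and C/EBP transcription factors, which switch on acute-phase proteins, chemokines and their own inhibitors. Fibroblasts and myofibroblasts lay down fibronectin, tenascin and fibrillar collagen, and a scar that narrows the lumen is the stricture that urethral repair seeks to avoid.

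The RNA matched the labelled tissue in part. The epithelial keratin KRT13 lay between 842 and 1646 CPM (counts scaled to the library's total, with TMM factors) in the 6 libraries, KRT19 between 993 and 1670.0 CPM, and the smooth muscle myosin MYH11 between 595 and 4366 CPM. Uroplakins, the plaque proteins of the urothelium, were nearly missing: UPK1A, UPK1B, UPK2 and UPK3A did not pass 9.48 CPM in any of the 6 libraries. Of the skeletal muscle genes, MYH1, MYH4, TNNC2, MYL1 and MYOT had a count of 0 in each of them. Some others were low but counted: RYR1 lay between 3.56 and 6.56 CPM, ACTA1 reached 4.83 CPM in S6_4 and TNNC1 3.74 CPM in S7_3. MYH2, TNNT1, TNNT3, TNNI2, CKM and MYLPF have no row of that name, so their levels are unknown.

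Depth hardly differed, with 35127085 to 36832773 counts per library. Some libraries stood apart within their own group, and the results below carry their values. S7_3 and S6_4 held 0.304% and 0.243% of counts on mitochondrially encoded genes, against 0.910% to 1.32% in the other 4 libraries. Not all of these genes were low there. ATP6 lay at 22.3 CPM in S7_3 and 25.9 CPM in S6_4, against 1946 to 2751 CPM in the other 4. ND4 lay at 303 and 242 CPM, inside their range of 219 to 352 CPM. S9_4, which also entered the fit, held 0.419%. Collagen transcripts were most abundant in S7_3: COL1A1, COL1A2 and COL3A1 together took 9.05% of its counts, against 3.71% in S7_2, 5.11% in S7_4 and 2.34% to 3.54% in the S6 libraries. S6_3 was the S6 library with the most macrophage, T cell and chemokine transcripts.

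Of 17102 genes tested, 19 were called different at an adjusted p under 0.05, which is 0.111% of them, and 11 of the 19 were lower in S7. The lower genes included acute-phase, interleukin-1, NF-kappaB and interferon-receptor genes, and the higher ones included a tubulin-binding protein, a LIM-domain protein and regulators of the GLI-similar and Numb families. All 19 had groups that did not overlap, as had 21.2% of all genes tested. Their adjusted p-values lay between 0.0303 and 0.0499 (edgeR's quasi-likelihood test), so each sat just inside the threshold. Where counts of called genes by other tests are given, they used the same 9 libraries and threshold. Over all 17102 genes, DESeq2 called 682 higher and 735 lower, and limma-voom 136 higher and 170 lower. The counts given below for gene lists stand against these totals and the following shares of all genes. Without overlap, 10.7% were higher in S7 and 10.4% lower. At an unadjusted p under 0.05, 8.68% were higher and 8.44% lower.

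**Figure D1:**
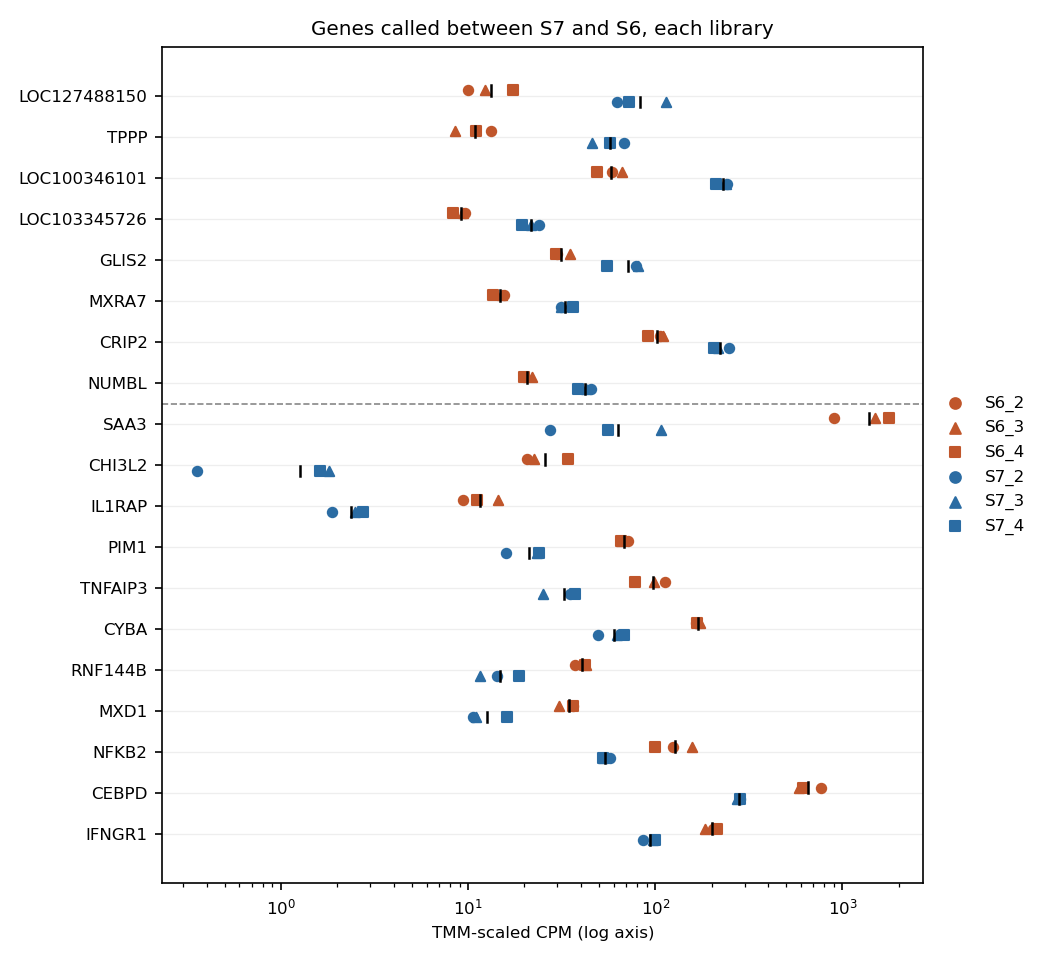
Level of each of the 19 called genes in the 6 libraries, in TMM-scaled CPM on a log axis. Each point is a library, black bars are group means, and the dashed line separates the 8 genes higher in S7 from the 11 lower ones. In no gene do the S6 and S7 points overlap, and SAA3 spans from 27.4 CPM in S7_2 to 1767 CPM in S6_4.

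Among the acute-phase genes, SAA3, which encodes a serum amyloid A made in inflamed tissue, showed the widest fold of the called genes. Its level was 898, 1490.4 and 1767 CPM in S6_2, S6_3 and S6_4 and 27.4, 107 and 55.6 CPM in S7_2, S7_3 and S7_4. The lowest S6 library thus stood far above the highest S7 library, and the mean was 21.9-fold lower in S7 (log2 fold change -4.45, SE 0.56, adjusted p = 0.0445). CHI3L2, a secreted chitinase-like protein, lay at 20.6, 22.4 and 34.2 CPM in S6 and at 0.355, 1.81 and 1.61 CPM in S7 (log2 fold change -4.35, SE 0.59, adjusted p = 0.0495). CEBPD encodes a C/EBP transcription factor that acute-phase signals induce. It lay at 771, 583 and 613 CPM in S6 and at 282, 274 and 283 CPM in S7, a 2.34-fold lower mean with nearly equal S7 libraries (log2 fold change -1.23, SE 0.15, adjusted p = 0.0445). Its relative CEBPB missed the threshold, with 182, 164 and 163 CPM in S6 and 75.8, 101 and 89.1 CPM in S7 (log2 fold change -0.94, adjusted p = 0.0587). HP, the haemoglobin-binding haptoglobin, lay at 47.7, 125 and 79.3 CPM in S6 and 5.70, 2.75 and 0.191 CPM in S7, with an adjusted p of 0.0915. ORM1, another acute-phase plasma protein, was split within S6, at 657 and 696 CPM in S6_2 and S6_4 but 24.4 CPM in S6_3, and lay between 4.01 and 23.995 CPM in S7.

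Of the 14 tested acute-phase and C/EBP genes, 3 were called lower (0.0643% of all genes were), none higher, and 11 did not pass. In 11 of the 14 the S7 libraries lay wholly below the S6 libraries, which held for 10.4% of all genes. The list's median log2 fold change was -2.01, against -0.01 for all genes tested. All gene lists used here were written with earlier results of these data known. This list and the NF-kappaB, interleukin-1, NADPH oxidase, microtubule and Notch lists were written with the called genes known. The calls, counts without overlap and medians of any list are therefore no independent evidence of a direction. SAA1, SAA2 and SAA4 have no row of that name, and reads of near-identical serum amyloid genes may have been counted under SAA3.

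Interleukin-1 acts through a receptor whose accessory chain is encoded by IL1RAP. IL1RAP stood at 9.40, 14.4 and 11.1 CPM in S6 and at 1.88, 2.48 and 2.75 CPM in S7 (log2 fold change -2.29, SE 0.29, adjusted p = 0.0445). The ligand IL1B did not pass the test, although its groups did not overlap: 18.9, 55.1 and 25.9 CPM in S6 and 1.31, 5.81 and 3.05 CPM in S7 (log2 fold change -3.30, SE 0.60, adjusted p = 0.0871). S6_3 was the highest of the S6 libraries and S7_3 the highest of the S7 libraries. IL1RN, the receptor antagonist, lay at 273, 166 and 314 CPM in S6 and 20.02, 73.1 and 96.1 CPM in S7 (adjusted p = 0.17). Of 19 tested genes of this family, 1 was called lower (0.0643% of all genes were) and 11 were lower without overlap (10.4% of all genes were). None was higher without overlap, and the median log2 fold change was -1.25.

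In the NF-kappaB pathway, TNFAIP3 and NFKB2, which the pathway itself induces, were lower in S7, while the groups overlapped for its subunit RELA. TNFAIP3, the ubiquitin-editing enzyme A20 that shuts the pathway down, lay at 113, 98.9 and 78.0 CPM in S6 and 35.0, 25.1 and 37.5 CPM in S7 (log2 fold change -1.57, SE 0.20, adjusted p = 0.0445). NFKB2, the p100 precursor of the non-canonical pathway, lay at 124, 157 and 99.4 CPM in S6 and 57.0, 52.5 and 52.3 CPM in S7 (log2 fold change -1.23, SE 0.17, adjusted p = 0.0499). Both genes were lower in every S7 library than in any S6 library. Several members missed the threshold: NFKBIE, an inhibitor of the pathway, had an adjusted p of 0.0695 and a log2 fold change of -1.50, ICAM1, a leukocyte adhesion receptor, 0.07 and -1.14, RELB, the partner of the NFKB2 product, 0.0778 and -1.41, and NFKBIA, the main inhibitor, 0.0814 and -1.13. RELA stood at 175, 169 and 171 CPM in S6 and 179, 158 and 155 CPM in S7 (log2 fold change -0.07, SE 0.12). In all, 2 of 25 tested genes were called lower (0.0643% of all genes were) and 18 were lower without overlap (10.4% of all genes were). None was higher without overlap, and the median log2 fold change was -1.05.

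PIM1, a serine/threonine kinase induced by STAT signals, lay at 71.8, 65.9 and 65.8 CPM in S6 and at 15.9, 23.3 and 24.02 CPM in S7 (log2 fold change -1.69, SE 0.20, adjusted p = 0.0445). It was the only one called among 22 tested genes of the interleukin-6 and STAT3 list. Of these 22, 7 were lower without overlap, where 10.4% of all genes were, and none higher. JAK2, a kinase that signals to STATs, lay at 36.5, 33.7 and 29.2 CPM in S6 and 14.9, 19.0 and 20.7 CPM in S7 (adjusted p = 0.0911). SOCS3, the feedback inhibitor, ranged from 64.1 to 124 CPM in S6 and from 19.2 to 44.5 CPM in S7 (adjusted p = 0.164). The groups overlapped for STAT3 itself, at 577, 381 and 511 CPM against 461, 446 and 403 CPM. IL6 was too low to test, with 25, 48 and 5 counts in S6 and 1, 9 and 6 counts in S7. The list's median log2 fold change was -0.61, and -0.40 without S6_3.

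IFNGR1, the ligand-binding chain of the interferon-gamma receptor, was 202, 183 and 214 CPM in S6 and 85.6, 96.6 and 99.96 CPM in S7 (log2 fold change -1.09, SE 0.12, adjusted p = 0.0445). Both groups were tight. None of the 18 tested interferon response genes was called, while 11 had an unadjusted p under 0.05 (8.44% of all genes were lower at that p). Without overlap 12 were lower, where 10.4% of all genes were. All 18 had a log2 fold change below 0, with a median of -0.70. DESeq2 called 6 of them lower and limma-voom 2. IFIH1, a sensor of double-stranded RNA, lay at 104, 93.6 and 91.7 CPM in S6 and 46.5, 52.8 and 56.3 CPM in S7 (adjusted p = 0.0695). For IFIT3, an interferon-induced antiviral gene, the levels were 216, 216 and 171 CPM against 76.0, 84.1 and 124 CPM (adjusted p = 0.0939).

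CYBA encodes p22phox, the membrane subunit shared by several NADPH oxidases. It lay at 166, 173 and 168 CPM in S6 and 49.2, 62.4 and 68.3 CPM in S7, so that the S6 libraries were nearly equal and the S7 libraries all lower (log2 fold change -1.49, SE 0.19, adjusted p = 0.0445). NCF1, the cytosolic p47phox subunit of phagocytes, did not pass, with 8.48, 38.8 and 17.3 CPM in S6 and 2.02, 4.27 and 3.73 CPM in S7 (adjusted p = 0.0938). CYBB, the catalytic subunit of the phagocyte enzyme, lay at 27.9, 192 and 57.0 CPM in S6, where S6_3 was highest, and between 14.8 and 21.5 CPM in S7 (adjusted p = 0.125). CYBA was the 1 called gene of 16 tested, 6 were lower without overlap (10.4% of all genes were), and the median log2 fold change was -1.28. The remaining called genes that were lower in S7 stood in no list. RNF144B, a ubiquitin ligase, lay at 37.3, 42.8 and 42.0 CPM in S6 and 14.3, 11.6 and 18.7 CPM in S7 (log2 fold change -1.46, adjusted p = 0.0445). MXD1, a MAX-binding repressor that opposes MYC, lay at 36.5, 30.6 and 36.2 CPM in S6 and 10.6, 11.1 and 16.1 CPM in S7 (log2 fold change -1.45, adjusted p = 0.0495).

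Leukocyte markers were lower in S7 beside these genes, with no single marker called. A log2 fold change below 0 was measured in most of them, where 48.9% of all genes had one above 0. Among the T and NK cell markers 19 of 19 tested had a log2 fold change below 0 (median -1.56), among macrophage and monocyte markers 22 of 24 (median -1.37), among B and plasma cell markers 12 of 15 (median -1.69) and among neutrophil markers 10 of 11 (median -1.78). At an unadjusted p under 0.05, 12, 18, 11 and 8 members of these lists in turn were lower and none was higher, where 8.44% of all genes were lower at that p. Members lower without overlap numbered 9, 12, 10 and 8, where 10.4% of all genes were lower without overlap. In the same order, DESeq2 called 9, 15, 9 and 6 members lower and limma-voom 1, 4, 3 and 3, and neither called one higher. In bulk tissue, fewer cells of a type and less RNA per cell cannot be told apart.

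Within S6, S6_3 held the most RNA of neutrophil, macrophage and T cell markers. CD163, the haptoglobin-haemoglobin scavenger receptor of macrophages, lay at 57.2, 259.9 and 105 CPM in S6 and 18.7, 17.1 and 31.0 CPM in S7 (adjusted p = 0.0939). Without S6_3 the log2 fold change of CD163 moved from -2.66 to -1.86. MZB1, which helps plasma cells to assemble antibodies, showed a different order, with 61.3, 100.1 and 106 CPM in S6 and 6.002, 12.4 and 27.2 CPM in S7 (adjusted p = 0.0918). CXCR1, the neutrophil receptor for CXCL8, lay at 16.7, 59.6 and 38.3 CPM against 2.78, 5.64 and 8.25 CPM (adjusted p = 0.0918). TNFRSF17, the plasma cell receptor BCMA, was less spread, at 7.42, 11.4 and 11.5 CPM against 2.56, 2.86 and 3.21 CPM (adjusted p = 0.0823).

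The summed level of the markers gives the same libraries a partly different order. Neutrophil markers summed to 8988 to 15930 CPM in S6 and 5688 to 8148 CPM in S7, B and plasma cell markers to 2996 to 4563 and 1344 to 2825 CPM. T and NK cell markers summed to 134.9 to 411.3 CPM in S6 and 67.9 to 145.6 CPM in S7, so the ranges overlapped. Macrophage markers summed to 3138 to 4612 CPM in S6 and 3038 to 9353 CPM in S7, where SPP1, the secreted osteopontin, alone gave 8453 CPM in S7_2. The neutrophil granule gene LTF, which mucosal glands also express, was the exception in its list, at 436, 33.3 and 538 CPM in S6 and 2764, 1578 and 772 CPM in S7 (adjusted p = 0.338). Granule genes made in the bone marrow were at or near 0: MMP8 had 0 counts in all 6 libraries, MPO had 4 counts in S7_2 and 0 in the other 5, and CAMP had 34, 4 and 21 counts in S6 and 1, 0 and 2 counts in S7. The part of these leukocyte differences in the lower levels of the called inflammatory genes was not tested.

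Chemokines and their receptors had a median log2 fold change of -2.41 over 32 tested genes, of which none was called. In the lower direction 21 had an unadjusted p under 0.05 (8.44% of all genes did). Without overlap 17 were lower, where 10.4% of all genes were. DESeq2 called 16 lower and limma-voom 3. The neutrophil attractant CXCL8 lay at 50.6, 27.4 and 24.7 CPM in S6 and 2.18, 8.03 and 3.35 CPM in S7 (log2 fold change -2.92, adjusted p = 0.0939). CCR7, which guides lymphocytes and dendritic cells to lymph nodes, lay at 7.77, 29.9 and 12.8 CPM against 3.001, 2.98 and 2.64 CPM (adjusted p = 0.0871). S6_3 was the highest S6 library for 23 of the 32 genes, and without it the median was -1.28. The T and NK cell median likewise moved from -1.56 to -1.01 without S6_3.

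Some metabolic and early-response genes stood lower without reaching the threshold. HK2, the hexokinase of glycolytic cells, lay at 56.3, 46.0 and 44.4 CPM in S6 and 8.68, 15.95 and 18.6 CPM in S7 (log2 fold change -1.76, SE 0.28, adjusted p = 0.07). The lactate exporter SLC16A3 lay at 58.6, 51.3 and 73.3 CPM against 2.37, 16.01 and 6.95 CPM (adjusted p = 0.106). None of 25 tested glycolysis and hypoxia genes was called, and the median log2 fold change was -0.42. Of the 25, 9 were lower and 1 higher at an unadjusted p under 0.05, where 8.44% of all genes were lower and 8.68% higher. DESeq2 called 5 lower and 1 higher, and limma-voom 2 lower. Of 18 immediate early genes none was called, and 5 were lower at an unadjusted p under 0.05 (8.44% of all genes were). Without overlap 6 were lower, where 10.4% of all genes were. DESeq2 called 5 lower and limma-voom 0. ZFP36, which destabilises cytokine messages, lay at 79.8, 88.3 and 79.5 CPM in S6 and 41.7, 41.5 and 45.0 CPM in S7 (adjusted p = 0.109). The AP-1 gene FOS overlapped, at 68.0, 27.3 and 36.6 CPM against 15.8, 24.6 and 32.2 CPM.

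**Figure D2:**
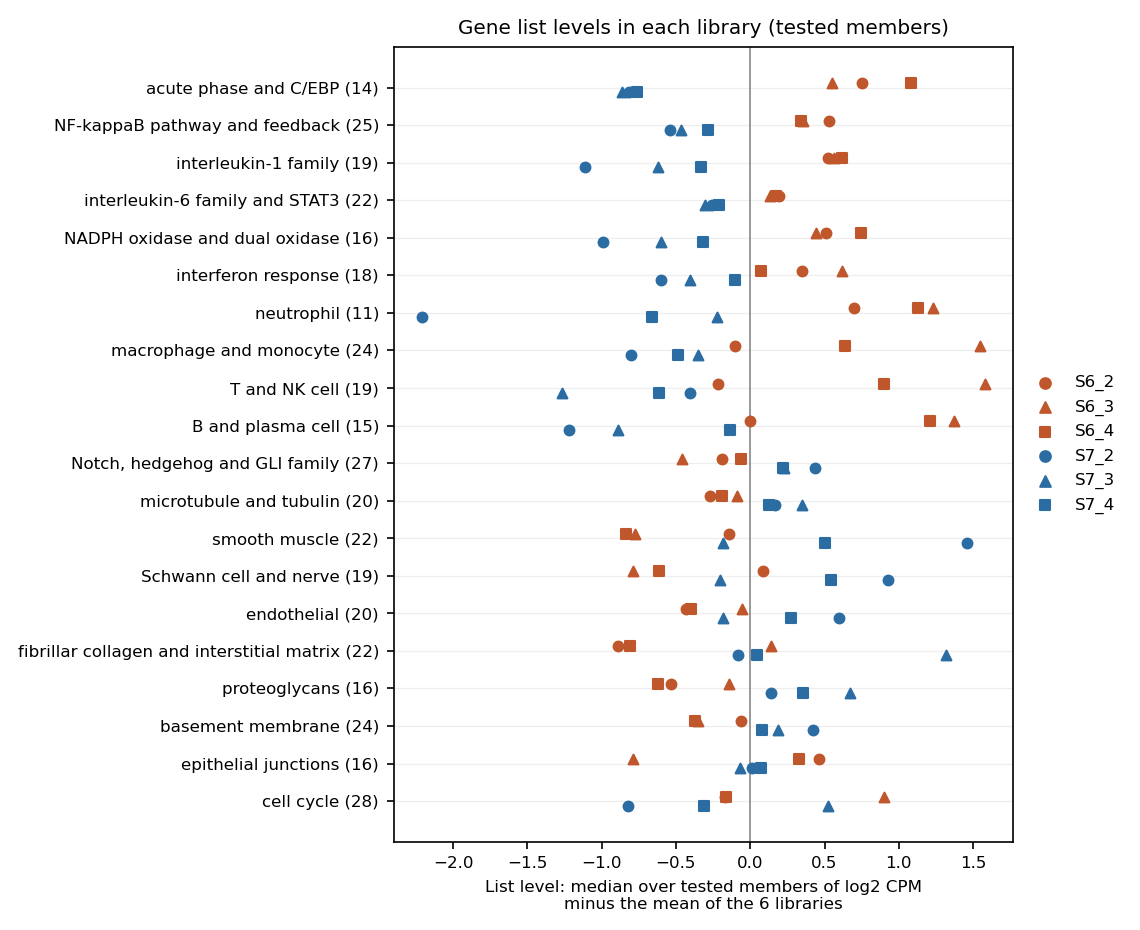
Level of 20 gene lists in each S6 and S7 library, as the median over tested members of log2 CPM minus that gene's mean over the 6 libraries, with the number of tested members in brackets. The NF-kappaB list separates the groups (0.34 to 0.53 in S6, -0.54 to -0.29 in S7), whereas fibrillar collagen runs from -0.08 to 1.31 in S7 and smooth muscle from -0.19 to 1.46.

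Among the genes higher in S7, TPPP had the smallest adjusted p together with an uncharacterised gene. TPPP binds tubulin and promotes the assembly and bundling of microtubules. Its level was 13.3, 8.51 and 11.02 CPM in S6 and 68.1, 45.8 and 57.1 CPM in S7, a 5.21-fold higher mean (log2 fold change 2.38, SE 0.22, adjusted p = 0.0303). The uncharacterised LOC100346101 lay at 58.5, 66.2 and 49.0 CPM in S6 and 240.3, 239 and 212 CPM in S7 (log2 fold change 1.99, SE 0.20, adjusted p = 0.0303). TPPP was the 1 called gene of 20 tested microtubule and tubulin genes (0.0468% of all genes were called higher). Of these 20, 9 were higher without overlap, against 10.7% of all genes, none was lower without overlap, and the median log2 fold change was 0.34. TUBB6, a beta-tubulin, lay at 50.2, 80.1 and 49.1 CPM in S6 and 162, 149.8 and 113 CPM in S7 (adjusted p = 0.0938). For MAP1B, a microtubule-associated protein of neurons and glia, the levels were 34.3, 30.7 and 25.3 CPM against 80.6, 85.8 and 53.4 CPM (adjusted p = 0.0998).

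GLIS2, a zinc-finger repressor of the GLI-similar family, lay at 29.9, 35.1 and 29.5 CPM in S6 and 78.7, 80.5 and 55.4 CPM in S7 (log2 fold change 1.18, SE 0.16, adjusted p = 0.0495). NUMBL, an adaptor related to the Notch antagonist NUMB, lay at 19.9, 21.8 and 19.8 CPM in S6 and 45.2, 42.5 and 38.6 CPM in S7 (log2 fold change 1.04, SE 0.14, adjusted p = 0.0499). NUMB itself overlapped, at 106, 67.8 and 99.9 CPM against 78.6, 83.3 and 82.7 CPM. These were the 2 called genes among 27 tested genes of the Notch, hedgehog and GLI families (0.0468% of all genes were called higher). Of the 27, 10 were higher without overlap, where 10.7% of all genes were, and none lower without overlap. A log2 fold change above 0 was measured in 25 (median 0.69, and 0.43 without S7_2). The receptor NOTCH3, known from vascular smooth muscle, lay at 174, 107 and 166 CPM in S6 and 298, 263 and 279.8 CPM in S7 (adjusted p = 0.0939). HEYL, a Notch target, lay at 7.61, 10.7 and 18.3 CPM against 34.8, 39.8 and 36.5 CPM, with the same adjusted p of 0.0939. On the hedgehog side, the signal transducer SMO had a log2 fold change of 0.96 (adjusted p = 0.0998), and the transcription factors GLI2 and GLI1 had 1.12 (adjusted p = 0.11) and 1.03 (adjusted p = 0.15). All 3 were higher in each S7 library than in any S6 library.

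The other called genes that were higher in S7 stood in no list. CRIP2, a LIM-domain protein found in vessels and muscle, lay at 106, 109.8 and 91.4 CPM in S6 and 247, 216 and 205 CPM in S7 (log2 fold change 1.12, adjusted p = 0.0445). MXRA7 lay at 15.5, 15.2 and 13.6 CPM in S6 and 31.4, 31.4 and 36.5 CPM in S7 (log2 fold change 1.16, adjusted p = 0.0495). The unnamed LOC103345726 lay between 8.31 and 9.67 CPM in S6 and between 19.3 and 24.03 CPM in S7 (log2 fold change 1.25, adjusted p = 0.0495). LOC127488150 lay at 9.97, 12.3 and 17.3 CPM in S6 and 62.1, 114 and 71.9 CPM in S7 (log2 fold change 2.65, SE 0.30, adjusted p = 0.0445). The RefSeq table pairs the gene ID of LOC127488150 with THY1, a surface glycoprotein of fibroblasts and nerve. The counts hold a separate row named THY1, which overlapped, at 149, 170.4 and 66.5 CPM against 331, 226 and 136 CPM (log2 fold change 0.85, adjusted p = 0.375), and reads may have been split between both rows.

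Interstitial matrix genes were mostly higher in S7, but by amounts that depended on S6_3 and S7_3, and none was called. All 22 tested genes of the fibrillar collagen and interstitial matrix list had a log2 fold change above 0, with a median of 1.03. An unadjusted p under 0.05 was reached by 11, where 8.68% of all genes were higher at that p. Without overlap 4 were higher, where 10.7% of all genes were. DESeq2 called 3 higher and limma-voom 1. COL1A1 lay at 9079, 12864 and 7618 CPM in S6 and 12560.5, 35155 and 17579 CPM in S7, so that S7_2 lay below S6_3 (log2 fold change 1.14, adjusted p = 0.194). COL3A1 did not overlap, at 10966, 14199 and 8889.6 CPM against 14983, 33317 and 19764 CPM (log2 fold change 0.999, adjusted p = 0.22). COL1A2 overlapped, at 8037, 10624 and 6321 CPM against 9683, 27789 and 13378 CPM (adjusted p = 0.229). Without S7_3 the log2 fold changes were 0.63 for COL1A1, 0.63 for COL3A1 and 0.48 for COL1A2, and the list's median was 0.49. Without both S6_4 and S7_3, the pair with few mitochondrial counts, the median was 0.29. Leaving out S6_3 moved it the other way, to 1.38, and without both S6_3 and S7_3 it was 0.83.

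FBN1, the microfibril protein fibrillin-1, did not follow S7_3. It lay at 420.3, 508 and 337 CPM in S6 and 1011, 929.9 and 916 CPM in S7 (log2 fold change 1.18, adjusted p = 0.0915), with a log2 fold change of 1.21 when S7_3 was left out. MFAP5, another microfibril protein, was likewise not highest in S7_3, at 231, 157 and 80.1 CPM against 529.6, 319 and 406 CPM (adjusted p = 0.122). FBLN2, an elastic fibre-associated fibulin, lay at 201, 184 and 136 CPM against 471, 384 and 243 CPM (adjusted p = 0.111). ELN, the elastin gene, showed S7_3 as the low library, with 608, 1039 and 1048 CPM in S6 and 1962, 905 and 2016 CPM in S7 (adjusted p = 0.519).

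For a set of provisional-matrix genes of wound tissue, S6_3 and S7_3 were the high library of each group. TNC, the tenascin of healing wounds, lay at 18.4, 126 and 47.1 CPM in S6 and 67.5, 542 and 64.6 CPM in S7 (log2 fold change 1.82, SE 0.96, adjusted p = 0.375). POSTN, the matricellular periostin, lay at 63.5, 884 and 160.2 CPM against 131, 988 and 87.4 CPM (log2 fold change 0.12, SE 1.25). Its log2 fold change was -1.74 without S7_3 but kept its sign without S6_3, so its direction rested on single libraries. FN1, fibronectin, lay at 444, 1444 and 609 CPM against 1348, 2606 and 1075 CPM (adjusted p = 0.352). THBS2, a matricellular thrombospondin, ran from 25.2 to 481 CPM within S6 and from 48.1 to 1685 CPM within S7. COL12A1, a fibril-associated collagen, ran from 23.5 to 225 CPM and from 56.3 to 706 CPM. In each of these 5 genes S6_3 exceeded both S7_2 and S7_4, so the groups overlapped.

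**Figure D3:**
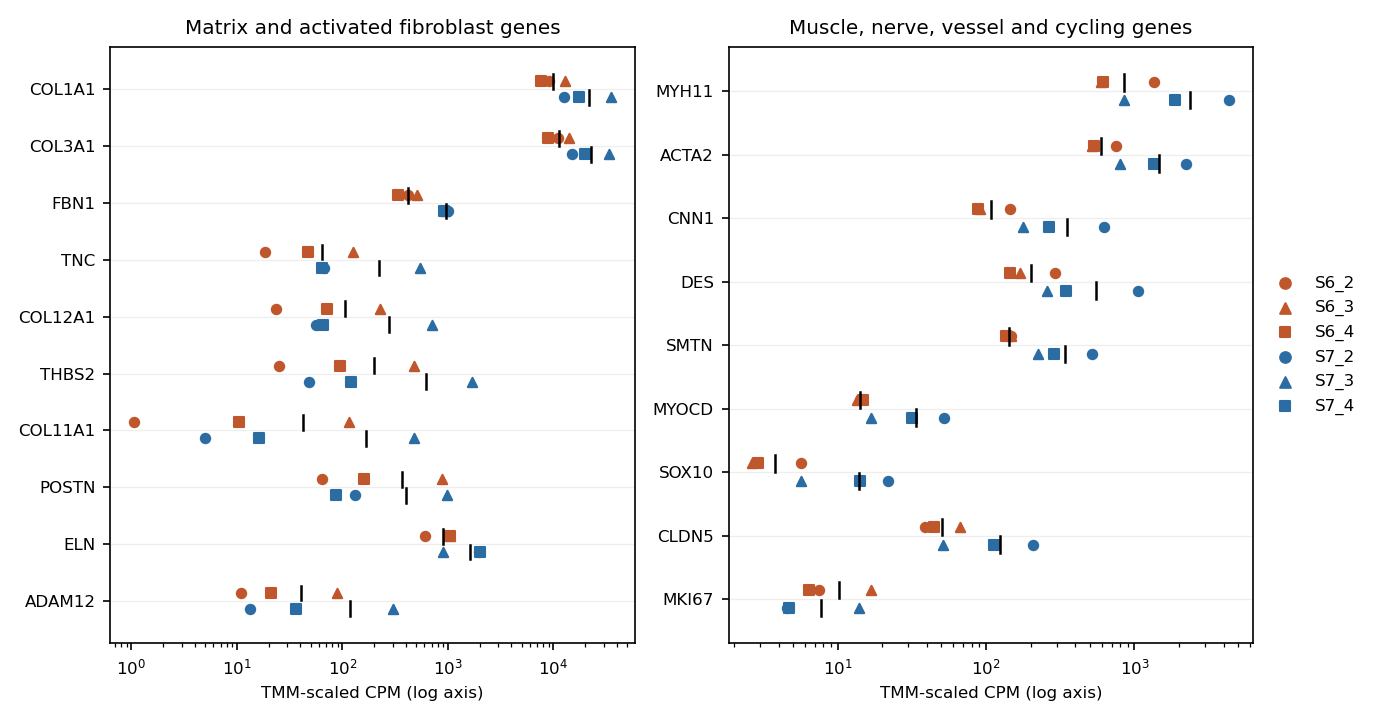
Levels by library, in TMM-scaled CPM on a log axis, of 10 matrix genes (left) and 9 genes of muscle, nerve, vessel and cell division (right). S7_3 is the highest S7 library for COL1A1 (35155 CPM) and TNC (542 CPM) and the lowest for MYH11 (852 CPM), CNN1 (177 CPM) and SOX10 (5.70 CPM).

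The same library pattern ran through the collagen-processing genes. S7_3 was the highest S7 library for 16 of 22 fibrillar and interstitial matrix genes, 19 of 21 collagen folding and crosslinking genes and 18 of 23 matrix proteases and inhibitors, where 6279 of all 17102 genes were highest in S7_3. S6_3 was the highest S6 library for 19 of 22 fibrillar and 17 of 21 folding genes. The crosslinking enzyme LOXL2 lay at 48.4, 191 and 64.5 CPM in S6 and 127, 683 and 129 CPM in S7 (adjusted p = 0.3). SERPINH1, the collagen chaperone HSP47, lay at 196, 589 and 300.3 CPM against 450.5, 1157 and 427 CPM (adjusted p = 0.428). None of the 21 folding genes was called, and 5 were higher at an unadjusted p under 0.05, where 8.68% of all genes were. DESeq2 called 2 of them and limma-voom 0. The median log2 fold change of 0.79 became 0.22 without S7_3, 1.19 without S6_3 and 0.44 without both. Proteases and inhibitors had a median of -0.02, which ran from -0.45 without S7_3 to 0.25 without S7_4. None of the 23 was called, while DESeq2 called 2 higher and 2 lower and limma-voom 0. In this list 4 were higher and 2 lower at an unadjusted p under 0.05, where 8.68% of all genes were higher and 8.44% lower. TIMP2, an inhibitor of metalloproteinases, lay at 424, 446 and 401 CPM against 702, 964 and 617 CPM (adjusted p = 0.105). The protease MMP3 was low, at 0.948, 7.24 and 1.02 CPM against 0.0273, 0.380 and 0.0545 CPM (adjusted p = 0.137).

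Taken as lists, proteoglycan and basement membrane genes were less tied to S7_3 than fibrillar collagen genes. S7_3 was still the highest S7 library for 8 of 16 proteoglycan genes and 9 of 24 basement membrane genes. The level of the proteoglycan list was 0.67 in S7_3, against 0.14 in S7_2 and 0.36 in S7_4. All 16 tested proteoglycan genes had a log2 fold change above 0, and none was called. Their median of 0.88 was 0.75 without S7_3 and 0.60 without both S6_4 and S7_3. An unadjusted p under 0.05 was reached by 6, where 8.68% of all genes were higher at that p. Without overlap 3 were higher, where 10.7% of all genes were, while DESeq2 called 3 higher and limma-voom 1. The fibril-binding FMOD lay at 28.8, 28.4 and 19.8 CPM in S6 and 45.1, 56.8 and 41.9 CPM in S7 (adjusted p = 0.106). HSPG2, the basement membrane proteoglycan perlecan, lay at 398, 474 and 321 CPM against 1061, 1119 and 632 CPM (log2 fold change 1.24, SE 0.30, adjusted p = 0.119). NID2, a nidogen, lay at 64.7, 71.5 and 53.4 CPM against 112, 115 and 101 CPM (adjusted p = 0.133). Of 24 basement membrane genes none was called, and 6 were higher at an unadjusted p under 0.05 (8.68% of all genes were). Without overlap 7 were higher, where 10.7% of all genes were. The median of 0.65 was 0.40 without S7_3 and 0.38 without S7_2. DESeq2 called 5 of these higher and limma-voom 0. In the TGF-beta pathway none of 23 genes was called, DESeq2 called 5 higher and limma-voom 0, and the median was 0.29. In this pathway 5 genes were higher at an unadjusted p under 0.05 (8.68% of all genes were). Its ligand TGFB2 lay at 13.2, 10.1 and 18.3 CPM against 24.6, 30.1 and 25.9 CPM (adjusted p = 0.121). The ligand TGFB1 overlapped, at 16.7, 40.9 and 30.2 CPM against 26.8, 33.8 and 21.2 CPM (log2 fold change -0.10, SE 0.31).

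Smooth muscle genes were higher in S7 with the reverse library order: S7_2 was high and S7_3 low. All 22 tested genes had a log2 fold change above 0 (median 1.30), and none was called. Of them 20 were higher at an unadjusted p under 0.05, where 8.68% of all genes were. Without overlap 12 were higher, where 10.7% of all genes were. DESeq2 called 12 of them higher and limma-voom 0. S7_3 was the lowest S7 library for 20 of the 22. MYH11, the smooth muscle myosin heavy chain, lay at 1357, 595 and 615 CPM in S6 and 4366, 852 and 1887 CPM in S7, so that S7_3 lay below S6_2 (log2 fold change 1.47, adjusted p = 0.248). ACTA2, the actin of smooth muscle and myofibroblasts, lay at 745, 519 and 532 CPM against 2236, 802 and 1350.2 CPM (log2 fold change 1.29, adjusted p = 0.161). SMTN, the contractile-cell protein smoothelin, had nearly equal S6 libraries of 147, 147 and 137 CPM and S7 libraries of 519, 222 and 285 CPM (adjusted p = 0.119). MYOCD, the coactivator that drives smooth muscle genes, lay at 14.1, 13.5 and 14.8 CPM against 51.9, 16.9 and 31.7 CPM (adjusted p = 0.208). Without S7_2 the list's median was 0.72, and the log2 fold change of MYH11 was 0.68.

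Nerve and vessel genes showed a like order of libraries. SOX10, the transcription factor of Schwann cells, lay at 5.69, 2.66 and 2.92 CPM in S6 and 21.9, 5.70 and 14.2 CPM in S7 (log2 fold change 1.89, SE 0.48, adjusted p = 0.125). None of 19 Schwann cell and nerve genes was called, the median log2 fold change was 0.78, and S7_3 was the lowest S7 library for 15. Of the 19, 6 were higher at an unadjusted p under 0.05 (8.68% of all genes were). Without overlap 4 were higher, where 10.7% of all genes were. DESeq2 called 4 of them higher and limma-voom 0. None of 20 endothelial genes was called either (median 0.52, and 0.29 without S7_2). An unadjusted p under 0.05 was reached by 7, where 8.68% of all genes were higher at that p. Without overlap 6 were higher, where 10.7% of all genes were, and DESeq2 called 6 higher and limma-voom 0. KDR, the VEGF receptor, lay at 19.8, 32.0 and 33.1 CPM against 44.6, 58.1 and 55.2 CPM (adjusted p = 0.109). PECAM1, present on all endothelium and on leukocytes, overlapped, at 198, 260.3 and 198 CPM against 327, 204 and 233 CPM (log2 fold change 0.22). CLDN5, the endothelial tight junction claudin, was low in S7_3, with 39.0, 66.6 and 44.8 CPM in S6 and 207, 51.3 and 113 CPM in S7.

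Epithelial lists had no called member, and their medians depended on single libraries. The median log2 fold change was 0.11 for 16 basal and stratified genes, of which 3 had an unadjusted p under 0.05, 0.24 for 10 squamous differentiation genes (1 at that p), -0.28 for 16 urothelial and luminal genes (2) and -0.11 for 16 junction genes (0). DESeq2 called 2 of the basal and stratified genes, 1 in each direction, and 1 urothelial gene, limma-voom 1 urothelial gene, and neither any squamous or junction gene. Over all 17102 genes DESeq2 called 682 higher and 735 lower, and 17.1% had an unadjusted p under 0.05 in either direction. With 1 library left out, the basal median ran from -0.18 without S7_3 to 0.22 without S6_2, and the squamous one from 0.06 without S7_3 to 0.45 without S7_2. The urothelial median ran from -0.57 without S6_3 to 0.05 without S6_2, and that of the junction genes from -0.38 to 0.15 without the same libraries. KRT5, the basal keratin, overlapped, at 479, 642 and 556 CPM in S6 and 426, 1285 and 544 CPM in S7. KRT15, a keratin of basal cells, lay at 556, 322 and 422 CPM against 1169, 638 and 746 CPM (log2 fold change 0.97, adjusted p = 0.141). KRT18, of simple and luminal epithelium, lay at 109, 61.3 and 98.2 CPM against 192, 152 and 169 CPM (adjusted p = 0.117). The cadherin CDH3, found in basal epithelium, was the other way round, at 20.5, 20.3 and 18.7 CPM against 10.2, 13.4 and 11.9 CPM (adjusted p = 0.141). S6_3 was the lowest S6 library for 15 of 16 junction genes and 13 of 16 urothelial genes.

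Cell division genes followed S6_3 and S7_3 rather than the groups. MKI67, expressed in cycling cells, lay at 7.53, 16.7 and 6.41 CPM in S6 and 4.53, 13.9 and 4.71 CPM in S7 (log2 fold change -0.40, SE 0.55). S6_3 was the highest S6 library for 27 of 28 tested cell cycle genes and S7_3 the highest S7 library for 25. None was called, and 1 was lower at an unadjusted p under 0.05, where 8.44% of all genes were. The median log2 fold change of -0.36 was 0.11 without S6_3 and -0.84 without S7_3. DESeq2 and limma-voom called 0 as well. Oxidative phosphorylation genes of the nucleus had a median of -0.20, with none of 40 called by edgeR, DESeq2 or limma-voom. Of the 40, 3 were lower at an unadjusted p under 0.05, where 8.44% of all genes were. S6_3 was the highest S6 library for 39 of the 40, and without it the median was -0.04.

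The S9 libraries entered the fit only to share the estimate of spread, and their levels for some called genes stand here beside those of S7. SAA3 lay at 12.04, 10.7 and 5.43 CPM in S9_1, S9_2 and S9_4, below each S7 library. For CEBPD the S9 levels were 205, 213 and 228 CPM, also below each S7 library. IL1RAP was the other way round, at 4.98, 3.59 and 4.55 CPM in S9, above each S7 library, and so was TNFAIP3, at 37.98, 45.2 and 38.6 CPM. TPPP lay at 43.1, 49.8 and 38.9 CPM, with S9_2 inside the S7 range and the other two below it. Of the 19 called genes, the S9 libraries lay wholly below the S7 libraries in 5, wholly above them in 3, and overlapped them in 11. These differences from S7 were not tested here.

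The 19 calls rested on the 9-library fit. All 19 kept their sign in each of the 25 alternative fits. Since their groups did not overlap, leaving out libraries could hardly have changed a sign, so the kept signs are no support for the calls. The number called did not last. It was 0 when the 6 libraries were fitted alone, where 2458 genes had an unadjusted p under 0.05, and 1417 with DESeq2. Leaving out 1 library gave 2 calls without S6_2, 10 without S6_3, 2 without S7_3, 1 without S7_4, 2 without S9_2 and 3 without S9_4. It gave 0 without S6_4, without S7_2 and without S9_1, where 2372, 2066 and 2743 genes had an unadjusted p under 0.05. Without S6_4 and S7_3 together, 0 genes were called, and the 19 had adjusted p-values between 0.167 and 0.278 in edgeR's test. In that fit the log2 fold changes of some of them were -4.83 for SAA3, -1.25 for CEBPD, -1.35 for NFKB2 and 2.53 for TPPP.

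**Figure D4:**
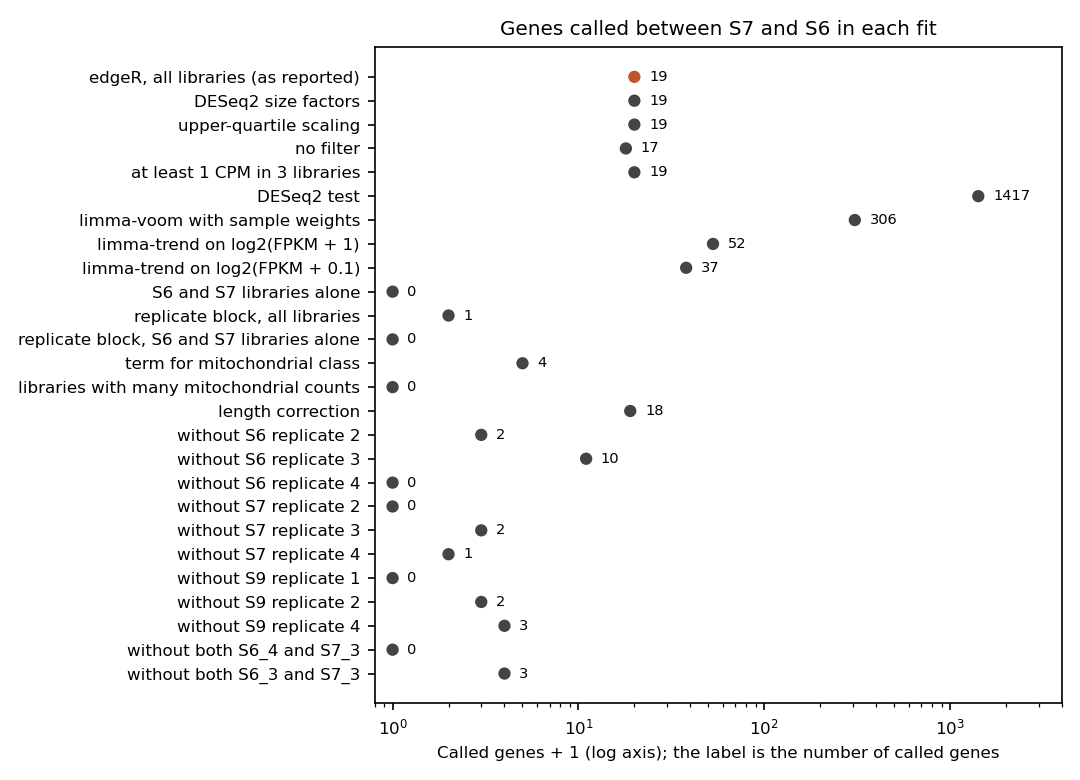
Number of genes called different between S7 and S6 at an adjusted p under 0.05 in the fit reported here and in each alternative, plotted as the number plus 1 on a log axis with the number beside each point. Counts run from 0 with the S6 and S7 libraries alone to 1417 with DESeq2, against 19 in the fit reported here.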

How the data were processed

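Polyadenylated RNA was sequenced in 3 libraries each of S6, S7 and S9. The labels' protocols name an RNeasy column kit and a SMARTER mRNA-Seq kit. The deposited values are whole counts of reads per gene, not normalized, and the authors also deposited FPKM values of the same reads. The submitters' processing notes name fastp, HISAT2 and HTSeq, with no versions. The genome build and the strand setting were not given in the sources used here, so overlapping and antisense genes could not be separated, and no coordinates, promoter or protein sequences were used.

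Of 28788 gene rows, 12867 carried a LOC number, of which 8417 gene IDs were found in the RefSeq table for mOryCun1.1, and 515 rows took a symbol from it (among them CD3G and NCF1). Genes were kept by filterByExpr (minimum count 10, minimum total 15), leaving 17102. Counts were scaled by TMM, and all 9 libraries entered a 3-group model, with robust quasi-likelihood dispersions in edgeR (edgeR 4.0.16, R 4.3.3, residual df 6, biological coefficient of variation 41.9%). S7 was contrasted with S6, with Benjamini-Hochberg adjustment over all genes and a threshold of 0.05. The script was tested on simulated counts. Depth was 35127085 to 36832773 counts per library.

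A list's level in a library is the median over its tested members of log2 CPM (prior count 2) minus the gene's mean over the 6 libraries. Of 802 distinct symbols in 37 lists, 731 had a row and 695 were tested. The lists, the comparison and the alternatives were chosen with earlier results of these data known. Named genes were every called gene, the 2 members with the smallest unadjusted p of each list with at least 5 tested members, and COL1A1, COL3A1, COL1A2, FN1, POSTN, TNC, ELN, DCN, TGFB1, ACTA2, MYH11, PECAM1, KRT5, UPK1B, MKI67, IL1B and CD163. Not every gene that this rule names is reported here. CEBPB, HP, ORM1, IL1RN, NFKBIE, ICAM1, RELB, NFKBIA, RELA, SOCS3, STAT3, IL6, CYBB, SPP1, LTF, MMP8, MPO, CAMP, CXCL8, FOS, MAP1B, NUMB, NOTCH3, HEYL, SMO, GLI1, GLI2, THY1, THBS2, COL12A1, LOXL2, SERPINH1, MYOCD, CNN1, CLDN5 and the tissue-check genes were chosen after their values were seen, as were the genes in the closing section.

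Alternatives in scaling were upper-quartile factors and DESeq2 size factors. Alternatives in filtering were none at all, or 1 CPM or more in 3 libraries. Other tests were DESeq2 1.42.0 and, in limma 3.58.1, voom weighted by sample and trend on log2(FPKM + 1) or log2(FPKM + 0.1). Further fits used the 6 libraries alone, a replicate block, a term for libraries with few mitochondrial counts, the libraries with many such counts, a length correction, and each library left out. Leaving out S6_4 with S7_3, and S6_3 with S7_3, was chosen after seeing the data.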

Additional observations from a re-analysis of the deposited data

How the results depend on the processing

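The number of called genes stayed at 17 to 19 with upper-quartile scaling, DESeq2 size factors, a length correction (18), a minimum of 1 CPM in 3 libraries and without a filter. It was 1417 with DESeq2, 306 with limma-voom, 52 and 37 with limma-trend at FPKM pseudocounts of 1 and 0.1, and 0 with the S6 and S7 libraries alone, where fewer libraries give the spread. It was 4 with a term for the mitochondrial class, 0 among libraries with many mitochondrial counts (2253 at an unadjusted p under 0.05), 0 without S6_4 and S7_3 (2259), 3 without S6_3 and S7_3, and 0 to 10 over the fits that leave out 1 library. Where a fit left out a library its group kept 2, and the spread was shared over all groups. DESeq2, limma-voom and limma-trend at a pseudocount of 1 called all 19 genes.

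The replicate numbers are not stated to pair libraries. Deviations of same-numbered S6 and S7 libraries correlated across genes with r of 0.138, 0.132 and 0.0226 for numbers 2, 3 and 4. For differently numbered libraries r ran from -0.178 to 0.0552, and S6_4 correlated more with S7_3 (0.0445) than with S7_4. Whether the numbers pair libraries was not settled by these values. The fit reported here took no pairs, since the labels name none. With a replicate block 1 gene was called over all libraries, and 0 over the S6 and S7 libraries alone (2664 at an unadjusted p under 0.05).

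Directions that reversed were those of genes that were not called. The log2 fold change of POSTN was -0.11 with limma-voom, -0.12 with the replicate block over all libraries, -2.12 among libraries with many mitochondrial counts, -0.38 without S6_2, -0.25 without S6_4, -1.74 without S7_3, -2.10 without S6_4 and S7_3 and -0.0414 without S6_3 and S7_3. That of KRT5 was -0.21, -0.19, -0.20 and -0.0967 among libraries with many mitochondrial counts, without S7_3, without S6_4 and S7_3, and without S6_3 and S7_3. TGFB1 turned to 0.0351 with the length correction, 0.22 without S6_3, 0.0602 without S7_4 and 0.0314 without S6_3 and S7_3. Among libraries with many mitochondrial counts and without S6_4 and S7_3, TNC turned to -0.12 and -0.11 and ACTA1 to 0.0744 and 0.0812. PECAM1 was -0.0017 without S7_2, MKI67 0.149 and TGM1 0.0569 without S6_3, and PSCA 0.0193 with limma-voom. Over the fits that leave out 1 library, values ran from -1.74 to 1.85 for POSTN, -0.192 to 0.712 for KRT5, -0.382 to 0.223 for TGFB1, -0.0017 to 0.368 for PECAM1, -1.13 to 0.149 for MKI67 and -2.09 to 0.0569 for TGM1. The cause of these reversals was not tested.

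Across 25 alternatives, list medians moved by less than the spread between libraries in 848 of the recomputed values and by more in 77. That spread was the list's own standard deviation between libraries within groups, so a widely spread list could move far without being counted. The fibrillar median went from 1.03 to 0.49 without S7_3 and stayed within its spread of 0.68. The 848 values are therefore no evidence that the medians were stable. In the lists with no called gene, limma-trend called 1 chemokine or receptor gene and 1 glycolysis gene lower at a pseudocount of 1, and none at 0.1. The coefficient of variation was 41.9% with 3 libraries per group. A description of promoter sequence was not made, since no sequence table was at hand.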

Other observations

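Some transcripts were nearly missing from some of the 6 libraries and well counted in the others. By a rule chosen after seeing the data (a gap of at least 16-fold between a lower and a higher set of libraries, and at least 30 CPM in the higher set), 29 genes were split in this way, and 17 of them were low in 1 or 2 libraries. In 9 of the 29 S6_4 and S7_3 were the low pair. ATP6, a mitochondrially encoded subunit of ATP synthase, lay at 25.9 CPM in S6_4 and 22.3 CPM in S7_3 and between 1946 and 2751 CPM in the other 4 libraries. PLEKHB2, a nuclear gene for a pleckstrin-homology protein, had the same pattern, at 0.429 and 0.467 CPM against 156 to 307 CPM.

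Other splits followed other libraries. LDHA, lactate dehydrogenase A, lay at 2.45 CPM in S6_3 and 2.07 CPM in S7_3 and between 70.7 and 147 CPM in the other 4. NDUFB9, a subunit of respiratory complex I, lay at 0.584 CPM in S7_3, and PDIA4, a protein folding enzyme of the endoplasmic reticulum, at 1.40 CPM in S7_3.

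A few genes were high in 1 library of S6 alone. The chemokine CCL17 reached 43.7 CPM in S6_3. SCGB1A1, a secretoglobin of mucosal epithelium, reached 72.3 CPM and SERPINA5, an inhibitor of serine proteases, 94.1 CPM in S6_4.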
